A study of Mus musculus with 8 samples.

Results

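Imprinted genes are transcribed mainly from the allele of 1 parent, and several of them act on feeding, growth and fat storage. Loss of the paternally expressed genes of the Prader-Willi region gives overeating and obesity in people, and Gnas, which encodes the stimulatory G protein alpha subunit, couples the hypothalamic melanocortin receptors to cyclic AMP. Paternally expressed genes as a class are known for favouring growth and maternally expressed genes for restraining it, and many of both are transcribed in hypothalamic neurons. A set of 10 such genes was taken by symbol from probes that name a single gene. They were Ndn, Magel2, Snrpn, Mest, Peg3, Dlk1 and Nnat (paternally expressed), Ube3a and Cdkn1c (maternally expressed), and Gnas, a complex locus with maternal, paternal and biallelic transcripts. Of the 10 genes, 9 had a probe, with 11 probes in all among the 14411 probes that name 1 gene. Snrpn had no probe naming it.

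The RNA came from the hypothalamus of male mice of the inbred strain C57BL/6J, whose animals share a genotype and still differ in weight gain. High gainers and low gainers had the same sequence of diets. It was 6 weeks of the high-fat diet D12331, 2 weeks of low-fat diet and another 6 weeks of high-fat diet. In the paper's protocol with these periods, the low-fat chow was restricted to a share of what each mouse had eaten earlier. By the methods the first high-fat period began at 8 weeks of age, so that the diets ended at 22 weeks. RNA of 20 mice made up 1 pool per group, and 4 arrays were run from each pool. They are therefore technical replicates, and each p-value compares 2 pools against the spread between arrays and says nothing of the spread between mice. In such bulk RNA, fewer cells of a type and less RNA per cell cannot be told apart.

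Low gainer array 2 stood apart, with a correlation across probes between 0.227 and 0.243 with the other arrays, against 0.943 to 0.987 among those 7. It is shown apart, and the comparison used high gainer arrays 1 to 4 and low gainer arrays 1, 3 and 4. Of 16 hypothalamic marker genes with a probe, 12 had a value on all 7 arrays. They included Oxt, the oxytocin precursor, at 9.04 ± 1.21 (SD, n = 4) in high gainers and 10.9 ± 1.13 (SD, n = 3) in low gainers, while Ghrh and Nkx2-1 had no value on any of the 7. Of the 12, 11 had a log2 difference (high minus low gainer) below 0, as had 5627 of all 11169 probes tested. Hcrt and Npy had an unadjusted p under 0.05 by limma, as had 6.48% of all probes, and neither was called. Pomc was at 0.735 to 1.48 on the 4 high gainer arrays. Low gainer array 4 gave 0.208 for Pomc, and arrays 1 and 3 gave no value. Otp had a value on high gainer arrays 2 and 4 only. Gh, Prl and Cga, transcripts of the neighbouring anterior pituitary, moved with the groups. Of 12 pituitary markers, 10 had a probe and 3 a value on all 7 arrays. The summed intensity of these 3 (Gh, Prl and Cga) lay between 8.295 and 10.4 for the high gainer pool. For the low gainer pool it lay between 0.837 and 1.38. Lhx3 and Lhb, with gaps on some arrays, overlapped between the pools. Lhx3 was at 0.540 to 1.46 in high gainers and 0.515 to 1.34 in low gainers. Lhb was at 0.339 to 0.416 and 0.364 to 0.366. Tshb, Tbx19 and Hesx1 had values on high gainer arrays only, and Pitx1 and Ghrhr had no value on the 7. The 5 oligodendrocyte markers measured summed to 47.2 to 75.2 for high gainers and 12.4 to 41.4 for low gainers. Most of each sum came from Mbp, at 42.1 to 66.7 in high gainers and 9.68 to 36.1 in low gainers. Mag did not overlap between the pools either, while Mog, Cnp and Cldn11 did. Pools did not overlap for 4.43% of all probes tested. The red cell markers Hba-a1 and Hbq1a did not overlap either, both lower in high gainers. Hba-a1 was at 8.11 to 13.9 in high gainers and 17.0 to 35.8 in low gainers. Among markers of cortex, striatum and thalamus, Neurod6 (lower in high gainers) and Rgs9 (higher) did not overlap. The median log2 difference, high minus low gainer, was -0.16 over the 12 hypothalamic markers and 0.52 over the 5 oligodendrocyte markers. It was -0.12 for 3 astrocyte, 0.11 for 5 microglia, 0.21 for 3 endothelial, -0.33 for 5 choroid plexus, -0.95 for 3 red cell and 0.16 for 6 markers of cortex, striatum and thalamus. Of these lists only the pituitary one held genes called by limma, all 3 of them higher in high gainers. The part of any of these lists in the imprinted genes was not tested.

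None of the imprinted genes of the set was called different between high gainers and low gainers. Of the 11 probes, 8 (from 7 genes) had a value on all 7 arrays and entered the fit with all 11169 such probes. At an adjusted p under 0.05 by limma, 0 of the 8 were called, where 0.0269% of all probes were. At an unadjusted p under 0.05 the count was 0 of 8, against 6.48% of all probes. At the methods' threshold, a 1.5-fold difference together with an unadjusted p below 0.01, it was 0 of 8 by limma, against 1.03% of all probes. The pools overlapped in deposited intensity for all 8, and 4.43% of all probes had pools that did not overlap. The methods' t-test called 0 of the 8 as well, both at the methods' threshold and after Benjamini-Hochberg adjustment. The 95% intervals, which cover the spread between arrays only, lay within 0.601-fold and 1.48-fold for 7 of the 8 probes. The exception was Dlk1, whose interval reached 3.40-fold.

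**Figure D1:**
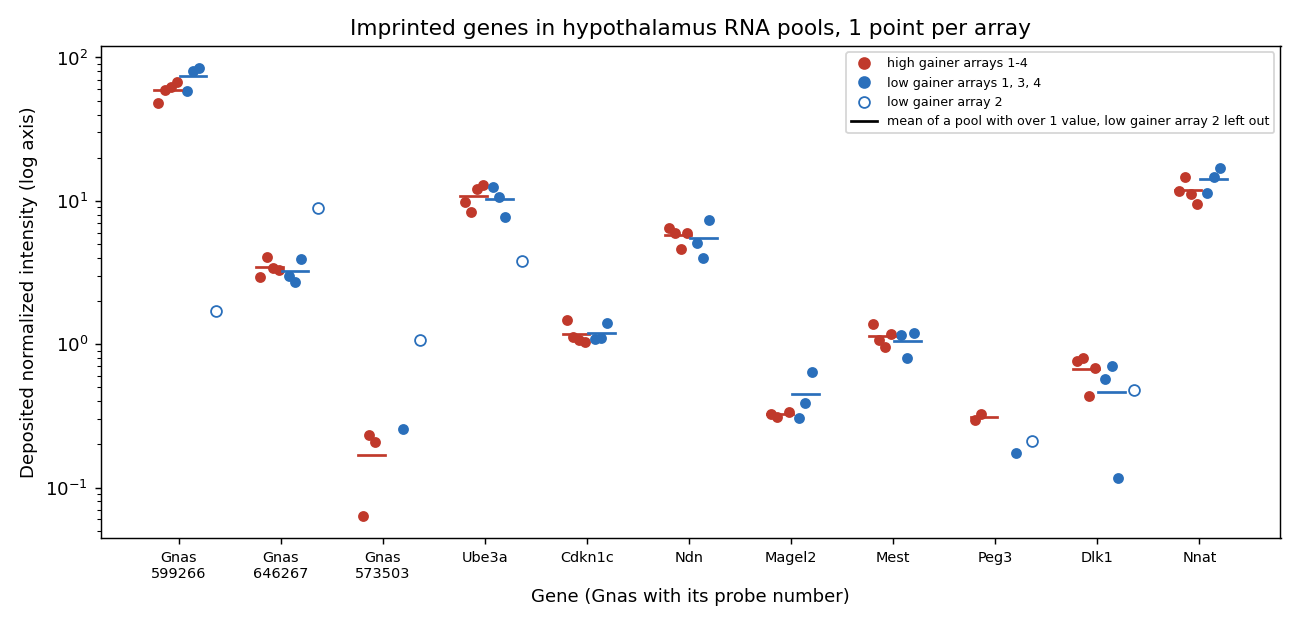
Deposited normalized intensity (log axis) of the 11 probes, 1 point per array with a value; red points are high gainer arrays, filled blue points low gainer arrays 1, 3 and 4, open points low gainer array 2, and lines the mean of a pool. High gainer and low gainer points overlap for all 8 probes measured on 7 arrays. For Dlk1 low gainer array 4 lies far below the rest, at 0.116, under the 10th percentile of deposited values (0.186).

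Gnas was represented by 3 probes, and which of the transcripts of the locus each one reads is not given in the sources used here. Probe 599266 had an intensity of 48.0, 59.2, 62.4 and 67.2 on high gainer arrays 1 to 4. On low gainer arrays 1, 3 and 4 it was 58.3, 81.0 and 84.0. Low gainer arrays 3 and 4 thus lay above every high gainer array, while low gainer array 1 lay among them. The means were 59.2 ± 8.15 (SD, n = 4) in high gainers and 74.4 ± 14.1 (SD, n = 3) in low gainers. The log2 difference, high minus low gainer, was -0.34, a fold of 0.789, with a 95% interval from 0.601 to 1.03 and an adjusted p of 0.787 by limma. An exact two-sided permutation test over the arrays gave a p of 0.229, where 0.0571 is the smallest that 4 against 3 arrays allow. Leaving out array 1 of the low gainers gave a log2 difference of -0.53, with an unadjusted p of 0.00712 and an adjusted p of 0.119 by limma. It was -0.14 without low gainer array 4. The size of the Gnas difference therefore moved by over 1.5 times with either array.

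Probe 646267 of Gnas lay between 2.96 and 4.07 in the high gainer pool and between 2.73 and 3.95 on the 3 low gainer arrays compared, with a log2 difference of 0.10 and an interval from -0.31 to 0.50. High gainer arrays 1, 2 and 3 read 0.0633, 0.232 and 0.208 with probe 573503, while low gainer array 4 read 0.256. The lowest of these values was that of high gainer array 1 and the highest that of low gainer array 4. All of them were low on their arrays, between percentiles 0.072 and 23.8 of the probes with a value, and their order was not tested. The other 3 arrays of the comparison had no value, and the probe was not tested. The 2 Gnas probes in the fit thus had differences of opposite sign, and neither was called.

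Ube3a encodes a ubiquitin ligase that neurons express from the maternal allele, and its loss causes Angelman syndrome. Its intensity was 9.75, 8.32, 12.2 and 12.98 on high gainer arrays 1 to 4. On low gainer arrays 1, 3 and 4 it was 12.5, 10.6 and 7.70. The groups overlapped over most of their range, and the lowest value was that of low gainer array 4. The fold of high over low was 1.08, with an interval from 0.803 to 1.44 and an adjusted p of 0.951 by limma.

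Cdkn1c, the other maternally expressed gene of the set, encodes the cell cycle inhibitor p57Kip2, a brake on growth of the embryo. High gainer arrays 1 to 4 read 1.48, 1.13, 1.06 and 1.03. Low gainer arrays 1, 3 and 4 read 1.09, 1.10 and 1.40. Each pool held 1 array above the rest, high gainer array 1 and low gainer array 4. The fold was 0.962 (interval from 0.704 to 1.31), and the adjusted p by limma was 0.976.

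The Prader-Willi and Angelman region holds Ndn, Magel2, Snrpn and Ube3a. Ndn encodes necdin, a protein of the MAGE family found in neurons after their last division. It measured 6.47, 5.99, 4.61 and 5.96 on high gainer arrays 1 to 4. Low gainer arrays 1, 3 and 4 gave 5.11, 3.99 and 7.36, so that the lowest and the highest value both came from the low gainer pool. The means were 5.76 ± 0.798 (SD, n = 4) and 5.49 ± 1.72 (SD, n = 3). The fold of high over low was 1.08, with an interval from 0.788 to 1.47 and an adjusted p of 0.952 by limma.

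Magel2, another MAGE gene next to Ndn, had a value on 6 of the 7 arrays and was outside the fit. High gainer arrays 1, 2 and 4 gave 0.326, 0.310 and 0.336, whereas low gainer arrays 1, 3 and 4 gave 0.308, 0.391 and 0.640. High gainer array 3 had no value. The high gainer values fell inside the low gainer range, whose upper end was low gainer array 4. The exact two-sided permutation p was 0.400, and 0.10 is the smallest that 3 against 3 arrays allow.

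Snrpn, which encodes a splicing protein, shares its transcript with Snurf, and a probe named for Snurf was present. Snurf measured 25.3, 41.4, 33.5 and 35.1 on high gainer arrays 1 to 4. On low gainer arrays 1, 3 and 4 it was 37.5, 19.9 and 45.8. As for Ndn, low gainer array 3 was the lowest and low gainer array 4 the highest of the 7. The log2 difference was 0.03, with an interval from -0.54 to 0.61. How far the Snurf probe stands for Snrpn was not tested.

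Dlk1 and Mest are known from fat tissue as well as from brain. Dlk1 encodes a membrane protein of the Notch ligand type that holds back fat cell differentiation. Its intensity was 0.758, 0.797, 0.433 and 0.680 on high gainer arrays 1 to 4. On low gainer arrays 1, 3 and 4 it was 0.571, 0.703 and 0.116. Low gainer arrays 1 and 3 lay within the high gainer range, and low gainer array 4 lay far below both. The value on array 4 was near the floor, under the 10th percentile of deposited values (0.186). With that amount added to every value as a pseudocount, the log2 difference of Dlk1 was 0.44 rather than 0.74. The fold of high over low was 1.67, with an interval from 0.818 to 3.40 and an adjusted p of 0.827 by limma. The log2 difference became -0.06 once low gainer array 4 was left out. Without low gainer array 3 it was 1.24, with an unadjusted p of 0.0273 and an adjusted p of 0.999 by limma. A single array thus decided the size and the direction for Dlk1. The SD within pools of Dlk1 was 0.94 on the log2 scale, where the median over probes of similar mean intensity was 0.36. For the other 7 probes of the set that SD lay between 0.20 and 0.32. Dlk1 is also known from anterior pituitary cells, whose markers Gh, Prl and Cga differed between the pools in the direction given above. Gh, the growth hormone transcript, was at 0.410, 0.549 and 0.585 on low gainer arrays 1, 3 and 4. Prl, the prolactin transcript, was at 0.419, 0.531 and 0.146 on the same arrays, and Cga, the shared alpha subunit of pituitary hormones, at 0.167, 0.296 and 0.106. Array 4 was thus the lowest of the 3 for Dlk1, Prl and Cga and the highest for Gh, and the part of pituitary RNA in the Dlk1 values was not tested.

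Mest encodes a protein with the fold of alpha/beta hydrolases, and its transcript is known to rise as fat tissue expands. In the hypothalamus pools it measured 1.38, 1.07, 0.957 and 1.17 on high gainer arrays 1 to 4. Low gainer arrays 1, 3 and 4 gave 1.16, 0.795 and 1.19. The fold of high over low was 1.08, with an interval from 0.781 to 1.48 and an adjusted p of 0.954 by limma. The groups overlapped, and low gainer array 3 was the lowest.

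Nnat encodes neuronatin, a small membrane protein of neurons and endocrine cells. High gainer arrays 1 to 4 read 11.8, 14.7, 11.2 and 9.58. For low gainer arrays 1, 3 and 4 the values were 11.3, 14.6 and 17.1. Low gainer array 4 was above all high gainer arrays, while the other low gainer arrays lay among them. The fold of high over low was 0.837, with an interval from 0.626 to 1.12 and an adjusted p of 0.857 by limma. Nnat lies within an intron of Blcap, a maternally expressed gene in brain, for which 2 probes were measured. Blcap probe 892957 was between 0.8295 and 0.966 on high gainer arrays and between 0.313 and 0.812 on low gainer arrays 1, 3 and 4, without overlap. Its log2 difference was 0.63 with an unadjusted p of 0.0368 and an adjusted p of 0.756 by limma, so it was not called. Blcap probe 918341 overlapped between the pools, with a log2 difference of 0.15.

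Peg3, a zinc finger gene that acts on growth and maternal behaviour, had few values. High gainer arrays 1 and 2 gave 0.296 and 0.326, and the low gainer pool gave 0.173 on array 4 with nothing on arrays 1 and 3. With 2 values against 1, Peg3 was not tested.

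Sequence near the transcription start was a further feature that the choice of genes did not use, and the arrays measured neither methylation nor binding there. RefSeq start windows of assembly GRCm38.p6, 300 bases each with 50 of them after the start, were found for 9 of the 10 genes, with 17 windows in all. Of these, 13 held more CpG dinucleotides than the median of 7 over all 32851 windows, and the Gnas windows held 16 to 40. The hexamer TGCCGC, which the imprint-keeping factor ZFP57 binds when methylated, was searched on both strands and was present in 4 of the 17 windows, in Mest, Nnat and Snrpn. Over all windows the share was 11.6%. Of the Mest windows, 2 with starts a few bases apart held 2 matches each. The first of these is shown, since only these windows have the hexamer in the part before the start. It gives the 250 bases before the start at chr6:30737800-30738049 (plus strand), with each match, read on the opposite strand, in capitals.
Mest: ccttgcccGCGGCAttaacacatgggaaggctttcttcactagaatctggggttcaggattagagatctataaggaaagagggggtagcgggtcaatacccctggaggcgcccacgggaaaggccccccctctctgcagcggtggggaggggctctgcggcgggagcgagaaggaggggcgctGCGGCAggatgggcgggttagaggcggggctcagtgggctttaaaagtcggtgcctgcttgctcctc

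Paternally and maternally expressed genes of the set were next set side by side. Of the 4 paternally expressed genes in the fit, 3 had a log2 difference above 0 and 1 below, with a median of 0.11. The 2 maternally expressed genes had 1 above and 1 below 0, with a median of 0.02. The median over all 11169 probes was -0.0024. The medians of both classes lay inside the interval of each of their members, and neither class is tested here, since genes are not replicates.

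**Figure D2:**
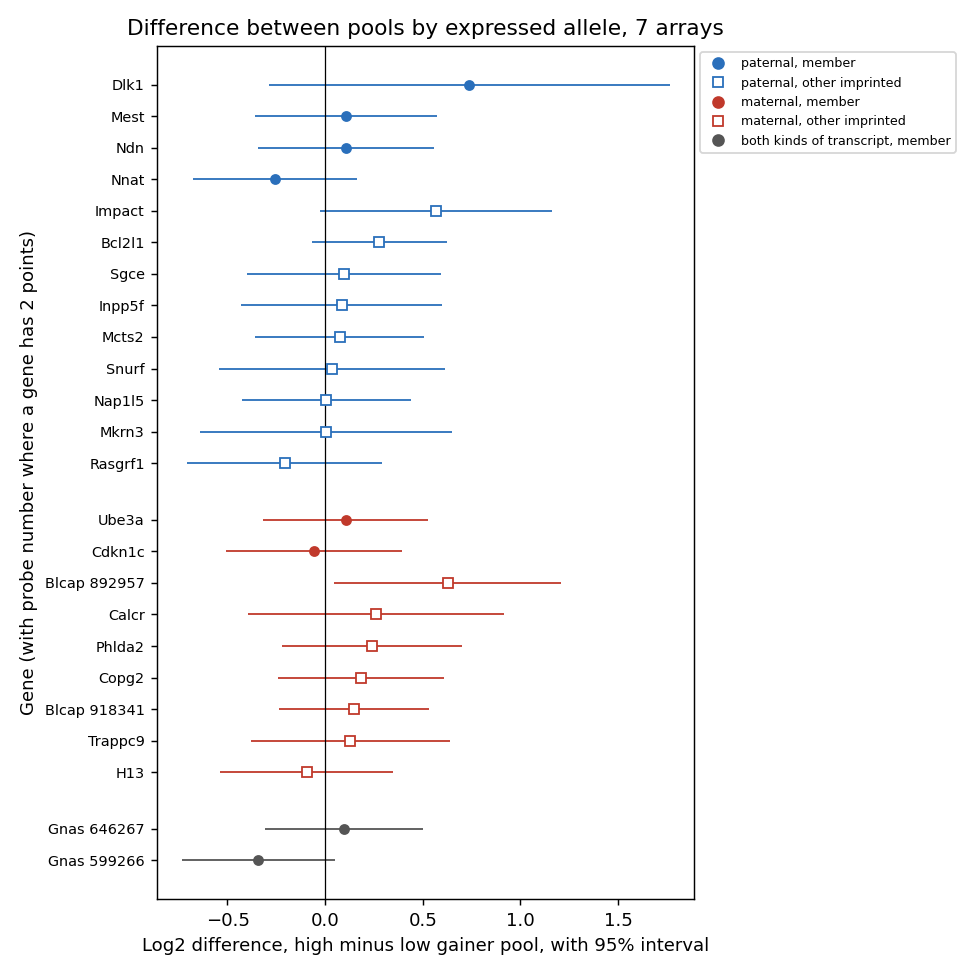
Log2 difference between the pools (high minus low gainer, 7 arrays) with its 95% interval, for probes of imprinted genes grouped by the expressed allele; filled circles are genes of the set and open squares other imprinted genes. All intervals but that of Blcap probe 892957 include 0, and Dlk1 has the widest, from -0.29 to 1.76.

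No other imprinted gene was called either. Of 46 listed, 31 had a probe and 15 a value on all 7 arrays. Of the 15, 0 were called by limma and 0 had an unadjusted p under 0.05 when each gene was taken by its brightest probe. The difference was above 0 for 13 of them and below 0 for 2, with a median of 0.10, and the largest was 0.57. Of all 11169 probes, 5542 were above 0 and 5627 below. Genes are not replicates, and the count of signs was not tested. Among the paternally expressed ones, Impact, a regulator of translation, had 1.99 ± 0.745 (SD, n = 4) in high gainers and 1.31 ± 0.395 (SD, n = 3) in low gainers, with a fold of 1.48 and an interval from 0.983 to 2.24. Bcl2l1, which encodes the survival protein Bcl-x, had a fold of 1.21 and an interval from 0.953 to 1.54. Rasgrf1, a Ras exchange factor of neurons, had 0.866 (interval from 0.613 to 1.22). Sgce, which encodes epsilon-sarcoglycan, had 1.07 (interval from 0.758 to 1.51).

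Among the maternally expressed ones, Phlda2, a growth-restraining gene of the placenta, had a fold of 1.18 with an interval from 0.859 to 1.63. Copg2, a vesicle coat subunit next to Mest, had 1.14 (interval from 0.847 to 1.52). Calcr, the calcitonin and amylin receptor, had 1.20 (interval from 0.761 to 1.88). The adjusted p by limma of these genes and the 4 paternally expressed ones lay between 0.756 and 0.963. With the genes of the set added, 11 of 13 paternally expressed genes and 6 of 8 maternally expressed genes had a difference above 0, and the medians were 0.08 and 0.14. Above 0 were also 5542 of all 11169 probes. No difference between the classes was tested.

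Arrays of the low gainer pool differed among themselves. Over the 13 paternally expressed genes, the median log2 deviation from each gene's mean was -0.30 on low gainer array 3 and 0.41 on low gainer array 4, which carry the same RNA. On the other 5 arrays it lay between -0.03 and 0.13. Low gainer array 4 was the highest of the 7 arrays for 7 of the 13 genes, among them Ndn, Nnat and Snurf, and 22.3% of all probes were highest there. Low gainer array 3 was the lowest for 8 of the 13, among them Ndn and Mest, against 17.6% of all probes. Dlk1 and Mcts2, a retrogene related to translation factors, ran the other way, and after normalization both were highest on array 3 and lowest on array 4. Over the 8 maternally expressed genes the medians of arrays 3 and 4 were -0.12 and -0.10. Array 4 was the lowest of the 7 for 3 of the 8, Ube3a included, and 24.6% of all probes were lowest there. These counts were chosen after the values were seen and carry no test.

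**Figure D3:**
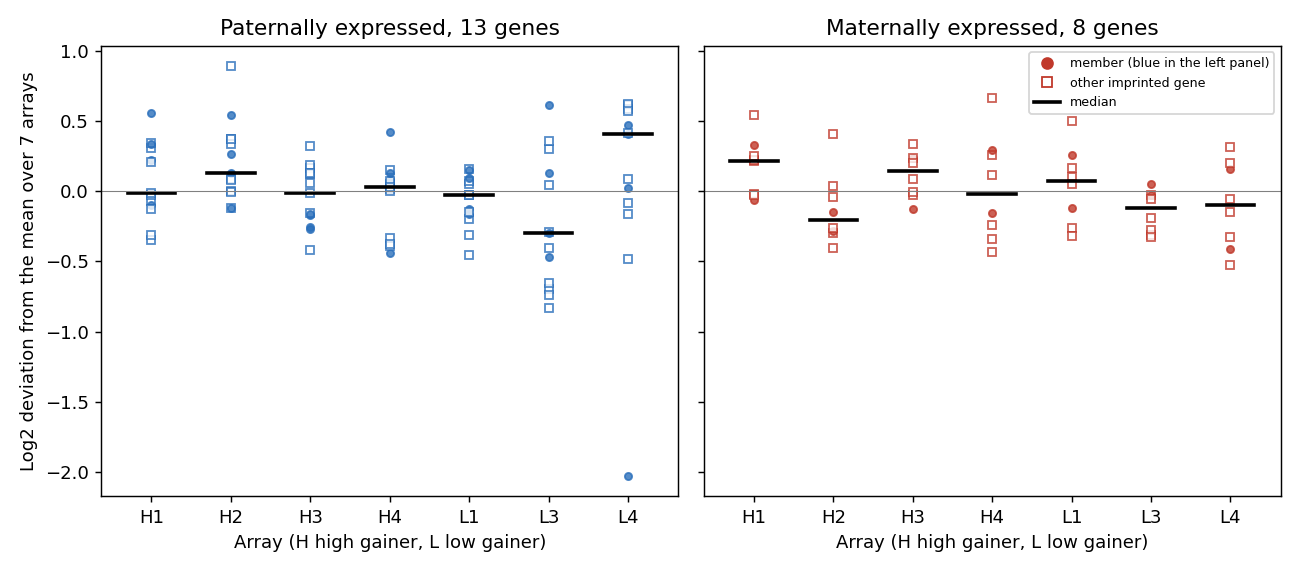
Log2 deviation of each imprinted gene from its mean over 7 arrays, by array (H high gainer, L low gainer), for 13 paternally and 8 maternally expressed genes; filled circles are genes of the set, open squares other imprinted genes and black lines the median. The paternal median is -0.30 on low gainer array 3 and 0.41 on low gainer array 4, and the lowest point on array 4 is Dlk1.

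The arrays were also left out in turn. The log2 difference of Ndn ran from -0.10 without low gainer array 3 to 0.34 without low gainer array 4. That of Nnat ran from -0.41 without low gainer array 1 to -0.09 without low gainer array 4 and kept its sign. For Ube3a it was -0.07 without low gainer array 4 and 0.11 with all 7 arrays. No probe of the set was called in any of these fits.

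**Figure D4:**
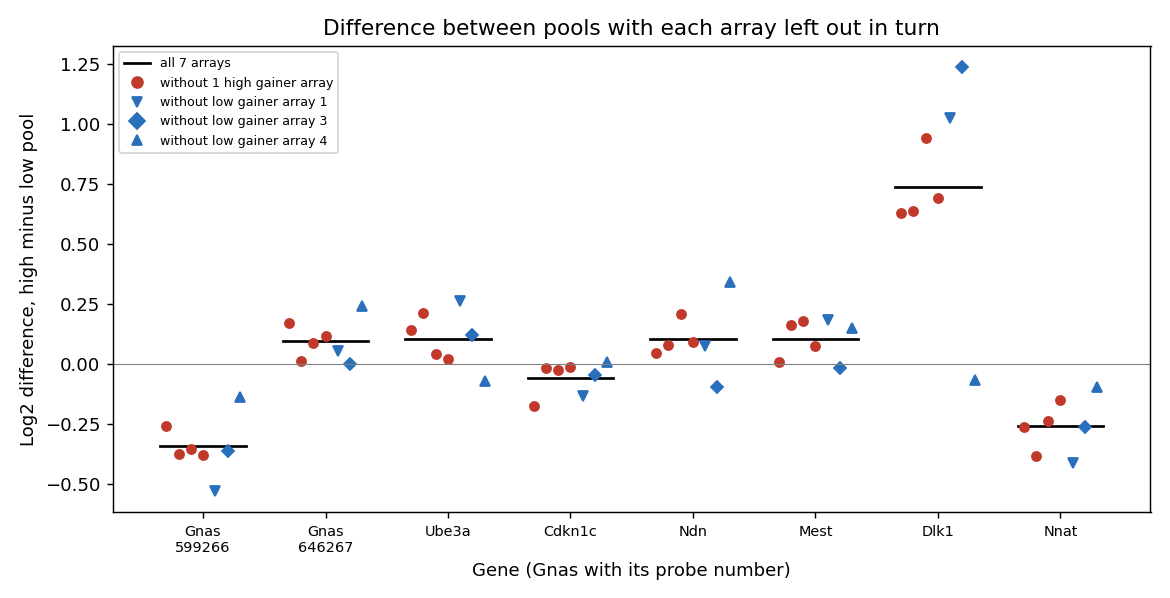
Log2 difference between the pools (high minus low gainer) for the 8 probes of the set measured on all 7 arrays, with each array left out in turn; black lines are the value with 7 arrays, red circles leave out a high gainer array and blue symbols a low gainer array. Dlk1 falls from 0.74 to -0.06 without low gainer array 4, and Gnas probe 599266 stays below 0 throughout.

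On low gainer array 2 the genes of the set took other values. Ndn, Magel2, Mest, Nnat and Cdkn1c had no value there. Gnas probe 599266 was at 1.71 and Ube3a at 3.81, both below all other arrays. Dlk1 was at 0.478 and Peg3 at 0.211. Only 4 probes of the set had a value on all 8 arrays, and with that array in the fit the log2 difference of Gnas probe 599266 was 0.90, with an interval from -1.59 to 3.39 and an adjusted p of 0.724 by limma.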

How the data were processed

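RNA of 20 mice per group was labelled with digoxigenin and hybridised to 1-colour Applied Biosystems mouse genome arrays read by chemiluminescence. The authors normalized signals by a quantile method and called a feature detected above limits of signal over noise and quality, per the methods. Each deposited column holds normalized intensity, linear in scale, with array medians between 0.714 and 1.05, and 13657 to 16873 of 33012 probes have a value on an array. Which step left cells empty is not given in the sources used here. The number of arrays limits the precision between arrays only, and with 1 pool per group these arrays do not measure the spread between mice.

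Probes were named from the platform annotation, and 14402 of 14411 probes with 1 gene matched a RefSeq gene identifier. Log2 intensities were quantile normalized again over the 11169 probes with a value on the 7 arrays and compared by limma 3.58.1 in R 4.3.3 (lmFit, eBayes with trend), with Benjamini-Hochberg adjustment over all of them and a threshold of 0.05. Probes with gaps were tested by an exact permutation test where each pool had 3 values. The fit was tested on simulated data. The brightest probe stood for a gene in counts and medians.

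Genes, lists (46 other imprinted genes, 34 neighbours, 9 cell marker lists) and the array set apart were chosen with earlier results of these data known. Named beside the set were up to 4 genes per allele class and 4 neighbours by smallest p, the 3 genes most alike in pattern to the Gnas probe that was both the brightest and the one of smallest p, and markers. Alternatives were another centring, cyclic loess, deposited values as they are, a pseudocount of 0.186, the brightest 50% of probes, probes with gaps, array weights, no trend, 8 arrays, the methods' t-test, a block for the replicate number, and the fit without each array.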

Additional observations from a re-analysis of the deposited data

Results flagged for a closer look

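Low gainer array 2, which the comparison did not use, gave an intensity of 8.89 for Gnas probe 646267, above the 2.73 to 4.07 of the other 7 arrays. For Gnas probe 573503 it gave 1.08, above the 0.0633 to 0.256 of the 4 other arrays with a value. Both were noted because they exceed every low gainer array of the comparison. Gnas probe 599266 went the other way on that array, at 1.71 against 48.0 to 84.0 elsewhere. Across probes this array correlated with the others at 0.227 to 0.243. What these values reflect was not tested.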

How the results depend on the processing

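No probe of the set and no other imprinted gene was called by limma or the methods' t-test under any of the alternatives that could be run for it. Of 137 values of the 8 probes under alternatives, 129 kept their direction and 8 turned it. With 8 arrays the log2 difference was 0.90 for Gnas probe 599266 and -0.34 for probe 646267, and the class medians rested on 1 gene each, 0.48 for Dlk1 (paternal) and 0.35 for Ube3a (maternal). Without 1 array the log2 difference ran from -0.17 to 0.0083 for Cdkn1c, from -0.065 to 1.24 for Dlk1, from -0.00076 to 0.24 for Gnas probe 646267, from -0.015 to 0.18 for Mest, from -0.10 to 0.34 for Ndn and from -0.071 to 0.26 for Ube3a. The paternal median then ran from -0.06 to 0.18 and the maternal from -0.03 to 0.10. The brightest 50% of probes left out Mest, Dlk1 and Cdkn1c. Over all probes, limma called 3 with 7 arrays, 1 with 8 arrays, 1 among the brightest 50%, 9 with the replicate block and 171 without low gainer array 1, and the methods' t-test called 0 after the same Benjamini-Hochberg adjustment. At the methods' threshold that t-test called 9 probes higher and 10 lower, and limma 51 and 64. Deviations of high and low gainer arrays of equal number correlated at -0.20, 0.13 and -0.14. For pairs of unequal number the correlations ran from -0.52 to 0.45. Whether arrays of equal number have more in common than the number was not tested. With the replicate number as a block, the log2 difference of Gnas probe 599266 was -0.37 and 0 probes of the set were called.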

Other observations

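Genes that lie beside the set in its imprinted regions, and are not clearly imprinted themselves, were compared in the same fit. Of 34 such neighbours, 23 had a probe and 11 a value on all 7 arrays, and 0 were called by limma, with 0 at an unadjusted p under 0.05. Their log2 differences lay between -0.18 and 0.34, with a median of -0.06, 4 above 0 and 7 below. Nipa1, a magnesium transporter gene of the Prader-Willi and Angelman region, had 7.503 ± 0.359 (SD, n = 4) in high gainers and 6.15 ± 1.70 (SD, n = 3) in low gainers, a fold of 1.26 with an interval from 0.958 to 1.66. Beside Cdkn1c, the histone chaperone gene Nap1l4 had a fold of 1.10 (interval from 0.876 to 1.37), the tetraspanin gene Cd81 1.13 (interval from 0.813 to 1.58) and the lipid transfer gene Osbpl5 a log2 difference of -0.14.

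The pattern of Gnas probe 599266 over the 7 arrays was most like that of Cntnap2, a neuronal adhesion gene, at a Pearson r of 0.991, then Tapt1 at 0.987 and Spag7 at 0.984. With 7 arrays of 2 pools, 73 probes of other named genes had an r of at least 0.9, and the arrays share their pools and normalization.

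Igf2r, a receptor gene listed here as maternally expressed, clears insulin-like growth factor 2, and which allele the hypothalamus used was not measured. Igf2r had a value on 6 arrays, at 0.470 to 0.498 on high gainer arrays 1, 2 and 4. It was at 0.308, 0.298 and 0.608 on low gainer arrays 1, 3 and 4, so that low gainer array 4 was the highest. This gene was chosen after its values were seen.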
